A study of Mus musculus with 24 samples.

Results

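The genes described here are 30 genes of cholesterol and fatty acid synthesis and its regulation, given as regulators and targets of the sterol regulatory element binding proteins (SREBPs). All 30 were found by symbol among the 55417 rows of the count table, and all 30 passed the filter on low counts that left 16767 genes to test. Gene expression was measured by bulk RNA-seq of dissected entorhinal cortex from mice 2 to 4 months old. All 24 libraries, the vehicle ones included, came from animals of genotype tg/tg of the cross Nop-tTA Line S x TRE-GlyCl-YFP Line 9531. In this cross the tetracycline transactivator, made under a promoter fragment used to reach entorhinal neurons, turns on a ligand-gated chloride channel fused to YFP that silences neurons when it is activated. The groups were vehicle (4 females, 2 males) and 1, 2 and 3 days after channel activation (3 females and 3 males each). The labels name neither the activating agent nor the time at which vehicle tissue was taken, and give no group without the transgenes. The tissue was not sorted, so the channel-bearing neurons were a portion of the cells sampled, and in bulk tissue fewer cells of a type and less RNA per cell cannot be told apart.

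Cholesterol is built from acetyl-CoA through mevalonate, squalene and lanosterol, and fatty acids from acetyl-CoA through malonyl-CoA. When sterols in the endoplasmic reticulum are low, SCAP carries SREBPs to the Golgi, where they are cleaved and released to switch on these genes, and INSIG proteins hold the SCAP complex back when sterols are plentiful. Plasma lipoproteins hardly cross the blood-brain barrier, so the brain makes its own cholesterol. Oligodendrocytes make it for myelin, and astrocytes supply neurons by way of apolipoprotein E.

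The libraries held 16.6 to 23.7 M counted reads, and the 30 genes together took 0.325% to 0.358% of them. Ttr, the transthyretin gene that marks choroid plexus, stood at 562 to 1174 CPM (counts per M counted reads of the library) in 8 libraries (1 of vehicle, 2 of day 1, 2 of day 2 and 3 of day 3), against 8.28 to 25.9 CPM in the other 16. Markers of neurons, entorhinal neurons, oligodendrocytes, astrocytes, microglia, vessels, meninges, choroid plexus and blood were all detected, and no marker gene was at 0 reads throughout.

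Promoter windows of 24 of the 30 genes were matched in RefSeq (mouse build GRCm38.p6), each the 250 bases before the annotated start of a transcript. Both strands were searched for 4 sets of letters. The core of a sterol regulatory element, in the exact form TCACNCCAC, was found for Hmgcs1 alone (1 of 24, 4.17%, against 1.22% of the 27025 genes with a window). Sqle, Fdft1, Fdps, Scd1, Scd2 and Stard4 had no matched window and could not be searched. Other forms of the element were not searched, so a window without these letters may still hold one. The CCAAT box, bound by NF-Y, was found for 19 of the 24 genes (79.2%, against 37.5% of all genes), as was the GC box GGGCGG, bound by Sp1 (19 of 24, 79.2%, against 35.4%). The E-box CACGTG was found for 5 of the 24 (20.8%, against 6.86%). A match of letters is a description of the window, not a binding site. The shares over all genes were not limited to genes measured here. A gene with several windows was counted if any of them held the letters. The windows below belong to Hmgcs1, Idi1, Insig1 and Cyp51, each of which was correlated across libraries with 1 or more of the other 3, and to Fasn, which had no such pair with them. They run 5′ to 3′ on the strand of the gene up to the base before the start. Capitals mark the sterol regulatory element core and the CCAAT box, written ATTGG where it lies on the other strand.
Hmgcs1, chr13:119690101-119690350, plus strand: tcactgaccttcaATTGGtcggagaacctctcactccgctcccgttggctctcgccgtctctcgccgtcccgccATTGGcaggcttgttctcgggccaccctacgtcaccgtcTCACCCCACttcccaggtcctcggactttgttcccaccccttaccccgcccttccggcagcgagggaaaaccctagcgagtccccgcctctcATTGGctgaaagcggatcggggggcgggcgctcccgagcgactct
Idi1, chr13:8885356-8885605, plus strand: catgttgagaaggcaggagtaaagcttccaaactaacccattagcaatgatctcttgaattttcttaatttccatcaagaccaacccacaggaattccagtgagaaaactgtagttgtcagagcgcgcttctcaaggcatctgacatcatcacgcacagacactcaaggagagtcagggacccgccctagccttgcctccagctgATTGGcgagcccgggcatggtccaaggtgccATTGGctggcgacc
Insig1, chr5:28071162-28071411, plus strand: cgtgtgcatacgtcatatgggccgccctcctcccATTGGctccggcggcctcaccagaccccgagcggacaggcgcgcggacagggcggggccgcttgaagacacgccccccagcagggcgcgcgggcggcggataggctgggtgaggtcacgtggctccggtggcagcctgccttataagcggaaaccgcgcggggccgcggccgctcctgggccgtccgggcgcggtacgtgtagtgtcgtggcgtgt
Cyp51, chr5:4104698-4104947, minus strand: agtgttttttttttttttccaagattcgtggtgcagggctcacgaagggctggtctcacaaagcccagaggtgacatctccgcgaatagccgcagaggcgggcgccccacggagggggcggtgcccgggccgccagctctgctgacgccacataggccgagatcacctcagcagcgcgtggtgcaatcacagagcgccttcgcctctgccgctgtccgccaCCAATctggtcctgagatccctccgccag
Fasn, chr11:120824548-120824797, minus strand: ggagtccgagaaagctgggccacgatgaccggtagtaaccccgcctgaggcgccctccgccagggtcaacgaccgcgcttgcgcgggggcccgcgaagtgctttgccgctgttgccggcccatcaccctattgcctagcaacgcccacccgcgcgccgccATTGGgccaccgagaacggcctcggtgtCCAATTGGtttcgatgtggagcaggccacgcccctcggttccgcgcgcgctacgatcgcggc
The core in Hmgcs1 reads TCACCCCAC and begins 137 bases before the start, and the same window holds 3 CCAAT boxes. Idi1 has 2 CCAAT boxes, Insig1 and Cyp51 have 1 each, and Fasn has 3, a pair of which overlap on opposite strands.

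No gene of the 30 passed the test against vehicle at day 1, day 2 or day 3. By edgeR's quasi-likelihood test with Benjamini-Hochberg adjustment over all 16767 genes, 0 of 30 passed an adjusted p of 0.05 at day 1 (0.0656% of all genes passed), 0 of 30 at day 2 (0.0656%) and 0 of 30 at day 3 (0.614%). DESeq2 and limma voom also called 0 of 30 in each. At an unadjusted p under 0.05, 0 of 30 stood out at day 1, 3 of 30 at day 2 and 7 of 30 at day 3, against 7.25%, 5.2% and 5.64% of all genes. The 3 at day 2 were all higher (against 2.74% of all genes), and at day 3, 2 were higher (3.58%) and 5 lower (2.06%). Fdps, which had too few reads for useful precision, was among the 2 higher at day 3. Some of the genes were correlated across libraries, so these counts are given as a description. A test of the 3 days jointly called 0 of 30 (0.644% of all genes), with 4 of 30 at an unadjusted p under 0.05 against 7.07% of all genes. Other genes passed the test in the same libraries: Gfap, the intermediate filament of reactive astrocytes, rose at day 3 by 1.12 ± 0.08 on the log2 scale (SE; edgeR, adjusted p = 1.77e-10), to a median of 395 CPM, against 186 CPM in vehicle. P-values measure the spread between these libraries, since the labels give each its own animal number without saying in so many words that each is a separate animal.

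The precision of the fit bounds how large an undetected difference in the level of the whole unsorted tissue could be. It sets no such bound for the channel-bearing neurons alone. Without Fdps, which had too few reads and is described with the mevalonate genes, the 95% intervals of the other 29 genes reached from -18.2% to 16.8% of the vehicle level at day 1, from -14.7% to 21.9% at day 2 and from -19.97% to 20.6% at day 3. These intervals are per gene and are not adjusted for the number of genes. The whole interval lay between 1.2-fold lower and 1.2-fold higher for 27, 26 and 26 of the 30 genes at days 1, 2 and 3. The median difference of the 30 from vehicle was -0.03 at day 1, 0.02 at day 2 and -0.01 at day 3 on the log2 scale, with 11, 20 and 13 of 30 above 0. Leaving out 1 library put this median at -0.07 (without replicate 5 of day 1) to -0.02 (without replicate 3 of vehicle) at day 1, at 0.01 (without replicate 4 of vehicle) to 0.04 (without replicate 1 of vehicle) at day 2, and at -0.03 (without replicate 4 of vehicle) to 0.00024 (without replicate 3 of vehicle) at day 3. Over all genes tested, the medians were 0.0011, 0.00059 and -0.0016, with 50.6%, 50.3% and 49.0% above 0. No gene of the 30 had 6 values on a day that lay wholly above or below the 6 vehicle values, against 0.632%, 0.298% and 0.74% of all genes at days 1, 2 and 3.

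**Figure D1:**
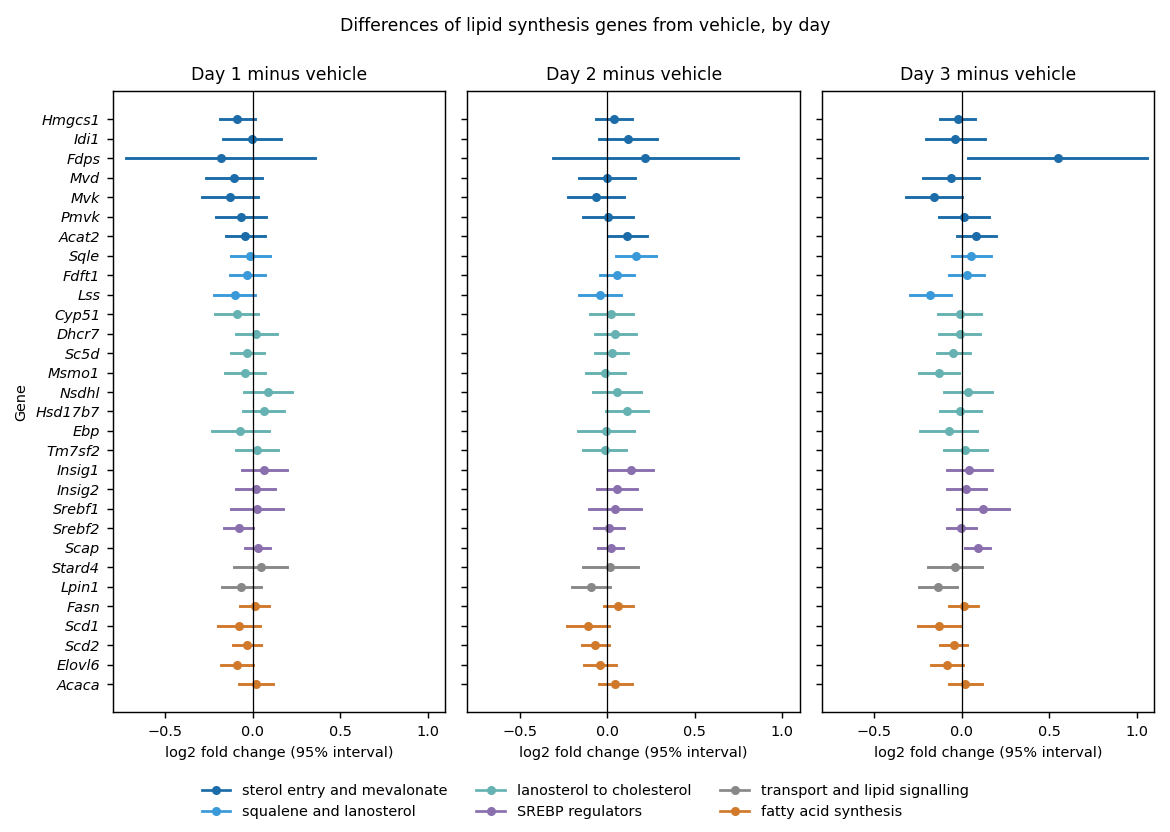
Difference from vehicle of each of the 30 genes (rows) on days 1, 2 and 3 (panels), as the log2 fold change (points) with its per-gene 95% interval (lines) from edgeR with 6 libraries per group; colours give the step of the pathway. Apart from Fdps, with its wide interval, all points lie between -0.18 and 0.16.

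Among the 7 genes that build mevalonate and its isoprenoid products, 0 were called on any day. The median difference was -0.09 at day 1 (0 of 7 above 0), 0.04 at day 2 (5 of 7) and -0.02 at day 3 (3 of 7) on the log2 scale. Hmgcs1, the synthase that makes HMG-CoA, ranged over 147 to 173 CPM (median 159) in vehicle, 131 to 173 (median 149.6) at day 1, 157 to 171 (median 166) at day 2 and 153 to 165 (median 158) at day 3. All 4 ranges overlapped, and its difference from vehicle was -0.09 ± 0.05 (SE; edgeR, adjusted p = 0.745) at day 1, 0.04 ± 0.05 at day 2 and -0.02 ± 0.05 at day 3. Acat2, the cytosolic thiolase that condenses acetyl-CoA at the start of the route, ranged over 30 to 36.0 CPM (median 32.2) in vehicle, 30.1 to 34.4 (median 31.7) at day 1, 31.3 to 38.5 (median 36.6) at day 2 and 32.4 to 36.3 (median 34.9) at day 3. The day 2 values reached higher than vehicle but overlapped with it, and the difference was 0.11 ± 0.05 (SE; edgeR, adjusted p = 0.950). A share of 28.9% of the 100-base windows of Acat2 transcripts also occurs in Acat3 (GENCODE M21), so reads of the pair may have been mixed. The kinases Mvk and Pmvk and the decarboxylase Mvd, which turn mevalonate into isopentenyl diphosphate, had group medians between 17.4 and 29.3 CPM, and Idi1, the isomerase that follows, between 13.8 and 15.1 CPM. The differences of these 4 from vehicle ran from -0.16 (Mvk, day 3) to 0.12 (Idi1, day 2), and 21.9% of the windows of Idi1 were shared with other genes.

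Fdps, the synthase of farnesyl diphosphate at the branch point of the pathway, could not be measured with useful precision. It had 8 to 22 reads per library (median 16), and its length-scaled level of 0.189 ± 0.061 CPM per kb (SD, n = 24) was the lowest of the 30. It ranged over 0.434 to 1.152 CPM (median 0.658) in vehicle, 0.549 to 0.728 (median 0.600) at day 1, 0.480 to 1.14 (median 0.868) at day 2 and 0.864 to 1.14 (median 1.05) at day 3. The values of day 3 lay above all those of day 1, the sole case among the 30 genes where the libraries of 2 groups did not overlap (0.829% of all genes between these days), while vehicle and day 2 spread across both. The difference of day 3 from vehicle was 0.55 ± 0.25 (SE; edgeR, adjusted p = 0.826), and that from day 1 was 0.73 ± 0.25 (SE; edgeR, adjusted p = 0.268). Of the windows of Fdps, 21.4% also occur in other genes, foremost Gm43738, which spans it on the same strand and had 0 to 2 reads. How the counting treated reads that fit both genes is not given in the sources used here.

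Of the 3 enzymes that make squalene and close the sterol ring, 0 were called on any day. Sqle, squalene epoxidase, a rate-limiting step, ranged over 61.0 to 74.0 CPM (median 65.1) in vehicle, 60.1 to 75.3 (median 64.7) at day 1, 66.8 to 80.0 (median 75.1) at day 2 and 64.1 to 76.7 (median 68.8) at day 3. Day 2 was the highest group, though 1 or more of its values fell within the range of each other group. The difference from vehicle was -0.01 ± 0.06 at day 1, 0.16 ± 0.06 (SE; edgeR, adjusted p = 0.757) at day 2 and 0.05 ± 0.06 at day 3, and Sqle had the lowest p of the 30 in the joint test of the days (edgeR, adjusted p = 0.436). Lss, the synthase that forms lanosterol, ranged over 29.5 to 35.1 CPM (median 31.7) in vehicle, 27.9 to 32.2 (median 30.6) at day 1, 27.9 to 34.1 (median 31.9) at day 2 and 25.9 to 30.2 (median 29.0) at day 3. Its day 3 values sat low but overlapped with vehicle, and the differences were -0.10 ± 0.06 at day 1, -0.04 ± 0.06 at day 2 and -0.18 ± 0.06 (SE; edgeR, adjusted p = 0.310) at day 3. Fdft1, squalene synthase, had group medians of 78.5 CPM in vehicle, 75.2 at day 1, 81.8 at day 2 and 79.8 at day 3, with differences from vehicle of -0.03, 0.05 and 0.03 at days 1, 2 and 3. A share of 15.98% of the windows of Fdft1 also occurs in its neighbour Ctsb.

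The 8 enzymes that take lanosterol to cholesterol differed from vehicle by -0.09 to 0.09 at day 1, -0.02 to 0.11 at day 2 and -0.13 to 0.03 at day 3 on the log2 scale, with 0 called. Msmo1, the oxidase that removes methyl groups from the sterol ring, ranged over 64.7 to 71.1 CPM (median 67.9) in vehicle, 61.1 to 76.2 (median 64.1) at day 1, 63.4 to 74.1 (median 68.0) at day 2 and 55.4 to 69.5 (median 63.0) at day 3. Day 3 held the lowest value of all, and its difference from vehicle was -0.13 ± 0.06 (SE; edgeR, adjusted p = 0.789). Hsd17b7, a sterol ketoreductase, ranged over 18.4 to 21.9 CPM (median 19.5) in vehicle, 19.6 to 22.2 (median 21.4) at day 1, 19.8 to 23.0 (median 21.8) at day 2 and 19.0 to 21.9 (median 20) at day 3. Its difference was 0.11 ± 0.06 (SE; edgeR, adjusted p = 0.960) at day 2 and -0.01 ± 0.06 at day 3, with overlap between all groups. The demethylase Cyp51 (group medians 55.3 to 59.7 CPM), the desaturase Sc5d (55.6 to 59.0 CPM) and the reductase Dhcr7 (35.1 to 37.8 CPM) overlapped in every group. So did Nsdhl, Ebp and Tm7sf2, a dehydrogenase, an isomerase and a reductase of the same stretch, whose group medians lay between 13.9 and 21.2 CPM.

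Of the 5 regulators of the pathway, 0 were called on any day. Srebf2, which encodes the SREBP that mainly drives cholesterol genes, ranged over 297 to 329 CPM (median 309) in vehicle, 275 to 316 (median 301) at day 1, 296 to 323 (median 315) at day 2 and 296 to 330.4 (median 316) at day 3. Day 1 sat lowest, with a difference of -0.08 ± 0.04 (SE; edgeR, adjusted p = 0.707) from vehicle, and days 2 and 3 differed by 0.01 ± 0.04 and -0.00 ± 0.04. Srebf1, which encodes the SREBP linked chiefly to fatty acid genes, ranged over 52.0 to 66.5 CPM (median 60.3) in vehicle, 50.6 to 72.6 (median 59.3) at day 1, 57.7 to 70.9 (median 60.4) at day 2 and 56.9 to 69.5 (median 66.6) at day 3, and its largest difference was 0.12 ± 0.07 (SE; edgeR, adjusted p = 0.988) at day 3. Insig1, a retention protein that is itself an SREBP target, ranged over 48.2 to 59.5 CPM (median 55.2) in vehicle, 54.9 to 63.4 (median 56.5) at day 1, 53.6 to 69.1 (median 58.5) at day 2 and 50.7 to 60.9 (median 57.7) at day 3. At day 2 it differed by 0.13 ± 0.06 (SE; edgeR, adjusted p = 0.950), with 3 or more values in the vehicle range. Scap, the escort of the SREBPs, was the steadiest gene of the 30, with a spread within groups of 3.24% of its mean, and ranged over 83.5 to 93.8 CPM (median 87.1) in vehicle, 87.8 to 96.6 (median 89.6) at day 1, 87.6 to 92.6 (median 89.1) at day 2 and 91.7 to 97.9 (median 94.2) at day 3. At day 3 its difference was 0.09 ± 0.03 (SE; edgeR, adjusted p = 0.624). The other retention gene, Insig2, differed by 0.02, 0.05 and 0.03 at days 1, 2 and 3.

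Among the 5 genes of fatty acid synthesis, 0 were called. Fasn, fatty acid synthase, ranged over 371 to 420.0 CPM (median 394) in vehicle, 381 to 443 (median 403) at day 1, 384 to 456 (median 418) at day 2 and 383 to 419.8 (median 414) at day 3, and its differences were 0.01 ± 0.04, 0.06 ± 0.04 (SE; edgeR, adjusted p = 0.982) and 0.01 ± 0.04 at days 1, 2 and 3. Scd2, the main stearoyl-CoA desaturase of mouse brain, ranged over 1274 to 1431 CPM (median 1365) in vehicle, 1278 to 1478 (median 1311) at day 1, 1257 to 1372 (median 1307) at day 2 and 1257 to 1386 (median 1345) at day 3. Its ranges overlapped throughout, with differences of -0.03 ± 0.04, -0.07 ± 0.04 (SE; edgeR, adjusted p = 0.971) and -0.05 ± 0.04. Elovl6, an elongase of saturated chains, ranged over 57.7 to 63.9 CPM (median 61.6) in vehicle, 56.3 to 61.3 (median 57.3) at day 1, 57.1 to 62.5 (median 59.6) at day 2 and 51.3 to 63.5 (median 57.8) at day 3, and its differences were -0.09 ± 0.04 (SE; edgeR, adjusted p = 0.691) at day 1 and -0.09 ± 0.04 at day 3. Scd1, the sister desaturase, had group medians of 148 CPM in vehicle, 142 at day 1, 137 at day 2 and 140.0 at day 3, and its day 3 difference was -0.13 ± 0.06 (SE; edgeR, adjusted p = 0.811). Acaca, acetyl-CoA carboxylase, had medians of 100.2 to 103 CPM, and 23.7% of its windows were shared, foremost with Gm5182. Shared windows were 2.58% for Scd1 and 0.879% for Scd2.

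Lpin1, a phosphatidate phosphatase and coregulator that bears on SREBP activity, ranged over 26.9 to 29.3 CPM (median 28.6) in vehicle, 26.6 to 29.4 (median 27.2) at day 1, 25.7 to 28.8 (median 26.8) at day 2 and 23.3 to 31.0 (median 25.8) at day 3. Its differences were -0.07 ± 0.05, -0.09 ± 0.05 and -0.14 ± 0.05 (SE; edgeR, adjusted p = 0.665) at days 1, 2 and 3, and the highest single value was also at day 3. Stard4, a sterol carrier, had medians of 30.7 CPM in vehicle, 30.8 at day 1, 32.7 at day 2 and 31.8 at day 3.

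**Figure D2:**
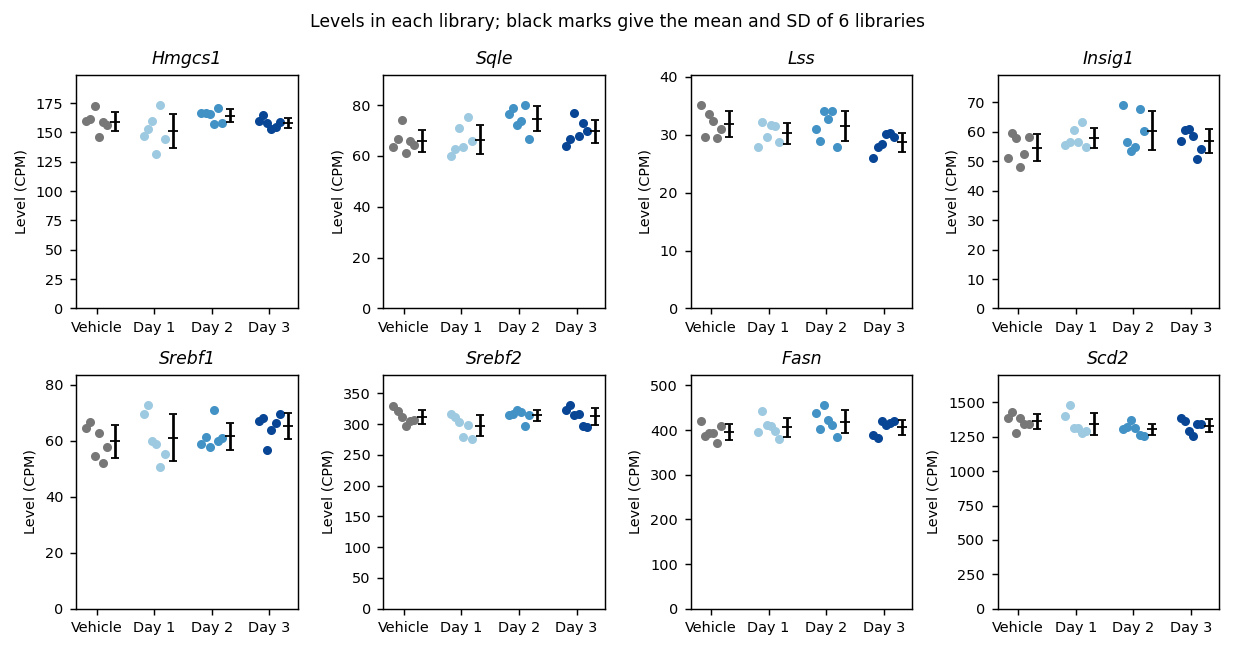
Level in CPM (vertical axes, from 0) of 8 genes in each library (points), by group, with the mean and SD of 6 libraries beside them (black). The 4 groups overlap for every gene shown; the largest difference of a group median from vehicle among them, in percent, is that of Sqle at day 2, 75.1 against 65.1 CPM.

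Between the days, day 2 was set against day 1 and called 0 of 30 genes (0.0119% of all genes called), with 4 of 30 at an unadjusted p under 0.05, against 4.25% of all genes. All 4 were higher (against 2.43% of all genes). They were Sqle at 0.18 ± 0.05 (SE; edgeR, adjusted p = 0.944), Acat2 at 0.16 ± 0.05, Hmgcs1 at 0.13 ± 0.05 and Srebf2 at 0.09 ± 0.04. Of the 30 genes, 23 were above 0 (76.7%, against 51.6% of all genes), and the median was 0.05. Day 3 against day 2 called 0 of 30 (0.131%), with 3 of 30 at an unadjusted p under 0.05 against 4.94% of all genes. Lss, Msmo1 and Hsd17b7 were the 3, all lower (against 2.06% of all genes). Here 6 of 30 were above 0 (20%, against 50.3%), and the median was -0.04. Both comparisons use the day 2 libraries, and some of the genes were correlated across libraries, so these counts are given as a description. Day 3 against day 1 called 0 of 30 (0.65%), with 15 of 30 above 0. At an unadjusted p under 0.05 there were 2, Fdps and Acat2, against 8.39% of all genes, both higher (5.12%). No gene had values that did not overlap between day 2 and day 1 (0.155% of all genes) or between day 3 and day 2 (0.328%). DESeq2 and limma voom called 0 of 30 in these comparisons too.

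Sex was fitted in the model. Females against males called 0 of 30 (0.0716% of all genes), and 1 of 30, Fasn, had an unadjusted p under 0.05 (against 7% of all genes, and 3.74% in that direction), with -0.06 ± 0.03 (SE; edgeR, adjusted p = 0.700), lower in females. The interaction of day and sex called 0 of 30 and 0 of 16767 genes (0%) with edgeR, and 0 with DESeq2. At an unadjusted p under 0.05 it held 0 of 30, against 3.49% of all genes, and the lowest p was that of Insig2 (edgeR, unadjusted p = 0.0670, adjusted p = 1.000).

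Per kb of exon, 29 of the 30 genes lay between 2.83 CPM per kb (Lss) and 244 (Scd2), with Fdps below them. Scd2 stood first at 244 ± 10.5 CPM per kb (SD, n = 24), well apart from Srebf2 at 43.0 ± 1.98, Fasn at 37.2 ± 1.90, Hmgcs1 at 34.5 ± 2.10 and Scd1 at 28.6 ± 2.20. Fdft1 (18.8 ± 1.07) and Insig1 (18.6 ± 1.603) followed and did not differ beyond their spread, nor did the run from Cyp51 (13.3 ± 1.02) through Acat2 (13.2 ± 0.984) and Sqle (12.5 ± 1.05) to Scap (12.2 ± 0.503). Lpin1 (2.84 ± 0.180) and Lss (2.83 ± 0.217) stood at the low end, above Fdps alone. Exon lengths came from GENCODE M21, and the length an isoform really has in this tissue may differ. The spread within groups had a median of 6.68% of the mean over the 30 genes, against 6.98% over all tested genes with a mean of 10 CPM or more.

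**Figure D3:**
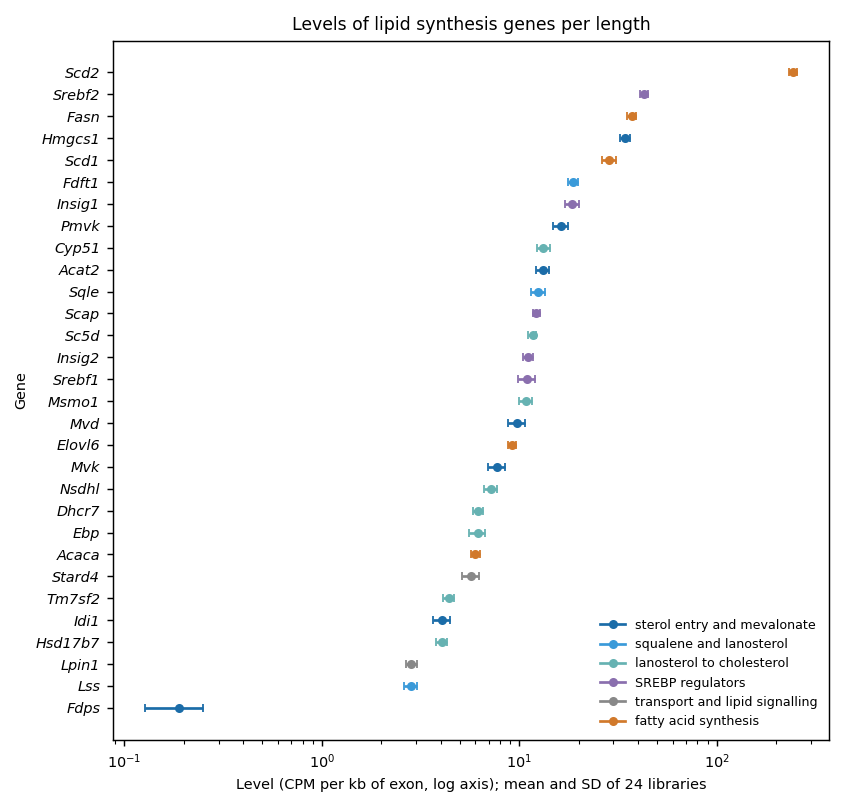
Level per kb of exon of each of the 30 genes (rows, highest at the top) as the mean and SD of 24 libraries, on a log axis in CPM per kb; colours give the step of the pathway. Scd2 lies at 244 CPM per kb and Fdps at 0.189.

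Within the groups, some of the genes varied together from library to library. Log2 levels were taken as residuals from group and sex over the 24 libraries, and each of the 435 pairs of genes was correlated, with permutation p-values adjusted over the 435. The permutations made no allowance for the terms already fitted, so these p-values are somewhat too small. Pairs near the threshold might not pass a stricter test. Of the pairs, 32 were positive and 7 negative at an adjusted p under 0.05 by Pearson's r, and 19 of these 39 also passed by Spearman's rho. All 39 kept their sign without the 2 libraries farthest from the median of the first gene, in the 16 libraries low in Ttr, and with the leading digits of the animal number also fitted. The 8 libraries rich in Ttr left 3 residual degrees of freedom and were not fitted alone. The median r over the 435 pairs was 0.08. No pair at an adjusted p under 0.05 was seen for 9 of the 30 genes (Nsdhl, Mvk, Ebp, Tm7sf2, Insig2, Srebf2, Scap, Lpin1 and Elovl6). An r above 0.5 was seen in 10.3% of the pairs, against 2.48% of pairings between the 30 genes and the other 16737 genes, and an r below -0.5 in 2.30% against 2.37%. Points share libraries, depth and scaling, and the genes are known to share regulators, so these shares are a description.

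One set of positive pairs joined some of the sterol enzymes, while Mvk, Pmvk, Nsdhl, Ebp and Tm7sf2 had no positive partner. Between Fdft1 and Msmo1, r was 0.78 and Spearman's rho 0.82 (permutation test, adjusted p = 0.00217 and 0.00145), with r 0.78 without the 2 farthest libraries and 0.66 in the 16 libraries low in Ttr. Between Msmo1 and Stard4, r was 0.79 and Spearman's rho 0.79 (permutation test, adjusted p = 0.00217 and 0.00145), with 0.68 and 0.89 in the same checks. Between Hmgcs1 and Idi1, r was 0.77 and Spearman's rho 0.75 (permutation test, adjusted p = 0.00290 and 0.00435), with 0.63 and 0.76. Fdft1 had 8 positive partners at an adjusted p under 0.05, the most of the 30, and Sqle, Msmo1 and Stard4 had 6 each. Its partners were Hmgcs1, Sqle, Idi1, Msmo1, Cyp51, Hsd17b7, Insig1 and Stard4. Insig1 joined this set with r 0.69 to Fdft1 and 0.61 to Mvd. Fdps paired with Acat2 at r 0.71, at the low read numbers given for Fdps.

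A second set joined Srebf1 and the desaturases. Between Scd1 and Scd2, r was 0.77 and Spearman's rho 0.81 (permutation test, adjusted p = 0.00326 and 0.00145), with r 0.70 without the 2 farthest libraries, 0.79 in the 16 libraries and 0.54 with the animal number fitted. Between Srebf1 and Scd2, r was 0.68 and Spearman's rho 0.77 (permutation test, adjusted p = 0.00783 and 0.00217), with 0.58, 0.72 and 0.47 in the same checks. Of the 7 negative pairs, the lowest r were those of Pmvk with Acaca (-0.63) and with Fasn (-0.62; permutation test, adjusted p = 0.0208 and 0.0217), which were -0.45 and -0.58 without the 2 farthest libraries. Stard4 was negative with Scd2 (r -0.57, permutation test, adjusted p = 0.0418). Srebf1 was negative with 4 sterol genes. Its r was -0.62 with Msmo1, -0.59 with Fdft1, -0.58 with Hsd17b7 and -0.57 with Sqle (permutation test, adjusted p = 0.0256, 0.0309, 0.0406 and 0.0445), and none of the 7 passed by Spearman's rho. The r of Srebf1 with Hsd17b7 was -0.27 in the 16 libraries, and that with Sqle -0.34 without the 2 farthest. Srebf2 had no partner at an adjusted p under 0.05 in either direction. Fasn paired with Acaca at r 0.69, which was 0.36 without the 2 farthest libraries and so rests in large part on them, and with Lss at r 0.66. The median r between mevalonate genes and fatty acid genes was -0.17, against 0.26 within the mevalonate genes and 0.29 within the fatty acid genes.

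**Figure D4:**
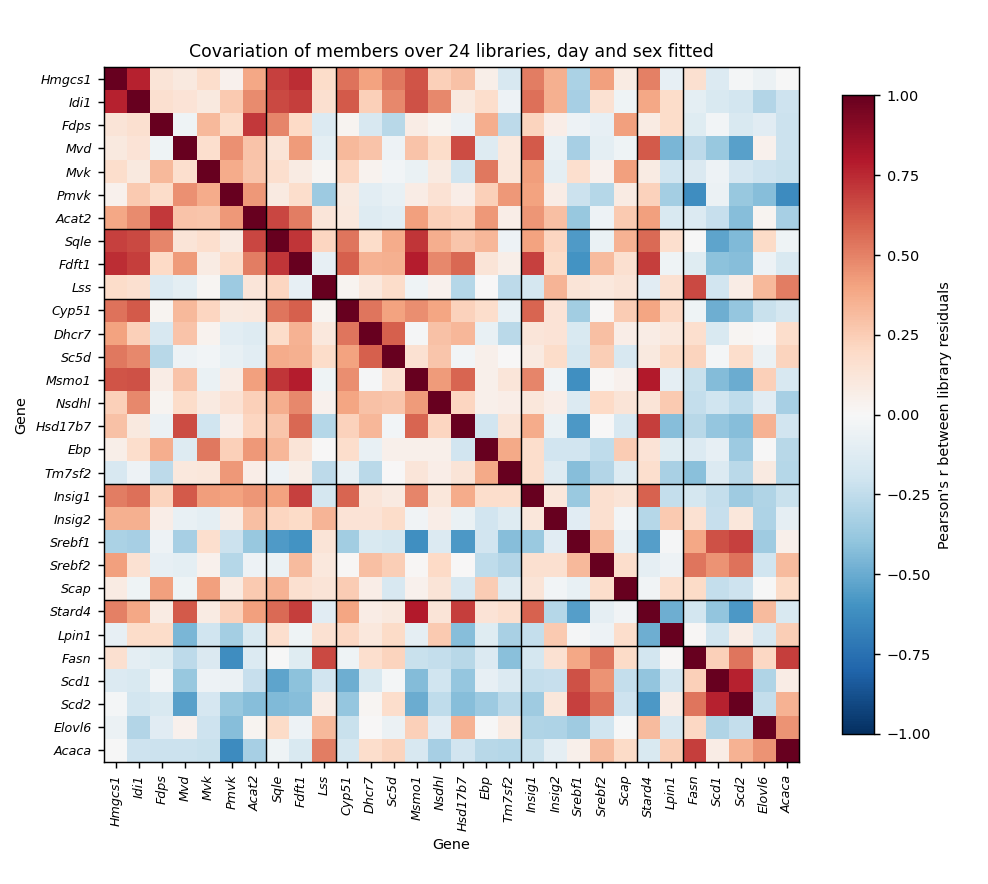
Pearson's r between library residuals (log2 CPM with day and sex fitted) for each pair of the 30 genes over 24 libraries; red is positive, blue negative, and black lines separate the steps of the pathway in the order of the rows. A red block joins Hmgcs1, Idi1, Sqle, Fdft1, Cyp51, Msmo1, Insig1 and Stard4, and Srebf1, Scd1 and Scd2 form a smaller one that is blue against most of them.

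The same library residuals were set against the mean level of 4 lists of cell type markers, 120 relations in all, of which 11 passed an adjusted p of 0.05 by Pearson's r and 2 of these by Spearman's rho. The same permutations were used, so these p-values too are somewhat too small, and relations near the threshold are uncertain. All 11 kept their sign without the 2 libraries farthest from the median marker score, but only 4 kept an r of 0.5 or more in size. With 10 astrocyte markers, 5 sterol genes (Sqle, Fdft1, Msmo1, Acat2 and Stard4) were negative and Scd1 and Scd2 were positive. Without the 2 farthest libraries, r was -0.43 for Fdft1, -0.43 for Acat2, -0.49 for Stard4 and 0.35 for Scd1. For Sqle, r was -0.75 and Spearman's rho -0.64 (permutation test, adjusted p = 0.00480 and 0.0486), with r -0.56 without the 2 farthest libraries and -0.72 in the 16 libraries low in Ttr. For Msmo1, r was -0.65 and Spearman's rho -0.64 (permutation test, adjusted p = 0.0273 and 0.0486), with -0.60 and -0.75. For Scd2, r was 0.60 and Spearman's rho 0.48 (permutation test, adjusted p = 0.0317 and 0.142), with 0.46 and 0.67. Scd1 was also positive with oligodendrocyte markers (r 0.63) and Sqle negative (r -0.58), and Elovl6 was negative with microglia markers (r -0.59; permutation test, adjusted p = 0.0273, 0.0385 and 0.0337). In that order, r was 0.41, -0.36 and -0.60 without the 2 farthest libraries. With choroid plexus markers, computed in the 16 libraries low in Ttr, Dhcr7 was negative (r -0.75, permutation test, adjusted p = 0.0273). Over all 24 libraries with the animal number also fitted, its r was -0.34. These 2 values differ in the libraries used as well as in the terms fitted. The marker scores are themselves correlated, at r 0.71 between astrocytes and microglia, and the part of cell composition in the pairs of genes was not tested.

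**Figure D5:**
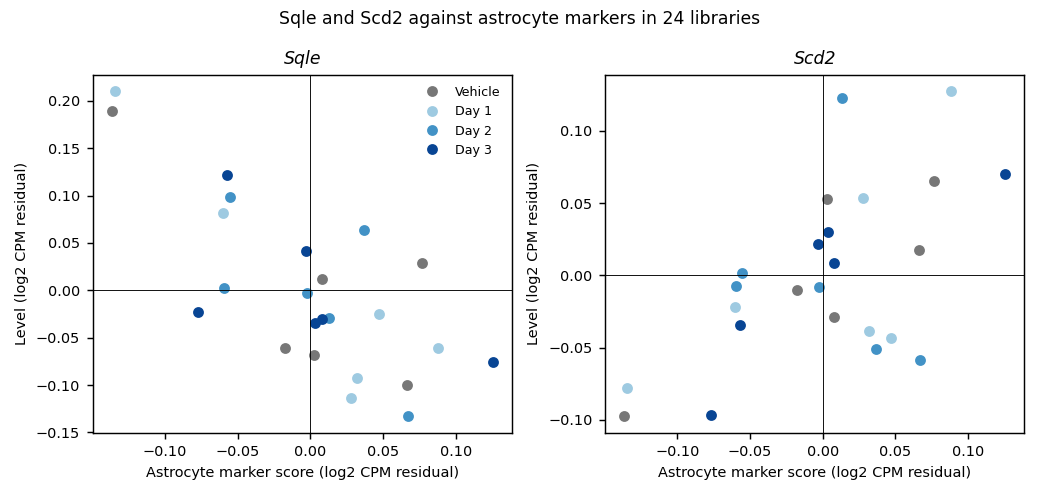
Library residuals (log2 CPM, day and sex fitted) of Sqle (left) and Scd2 (right) against those of the mean of 10 astrocyte markers, each point 1 of 24 libraries, coloured by group. Sqle falls and Scd2 climbs along the axis (r -0.75 and 0.60). Since group was fitted, every group is centred on both axes by construction, and differences between groups cannot be read here.

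Between groups, the summed level of the 10 astrocyte markers was 5319 to 6210.0 CPM (median 5951) in vehicle, 5266 to 6217 (5738) at day 1, 5506 to 5929 (5708) at day 2 and 5497 to 6059 (5682) at day 3, and 0 of 10 were called on any day. The 12 oligodendrocyte markers summed to 2477 to 3582 CPM (median 3289) in vehicle, 2876 to 3825 (2973) at day 1, 2553 to 3348 (2959) at day 2 and 2578 to 3497 (3132) at day 3, also with 0 of 12 called. All 12 were below 0 at day 2 against vehicle and against day 1 (medians -0.13 and -0.13). All 12 were above 0 at day 3 against day 2 (median 0.09). Of all genes, 50.3%, 51.6% and 50.3% were above 0 in these comparisons. Whether this bears on the 30 genes was not tested. Microglia markers stood apart, with 3 of 10 called higher at day 3 (C1qb and Cx3cr1 among them), against 0.614% of all genes called in either direction. All 10 were above 0 (median 0.19), against 49.0% of all genes. Their summed levels were 383 to 477 CPM at day 3, against 336 to 393 CPM in vehicle. Choroid plexus markers had a median of 327 CPM at day 3, against 22.3 CPM in vehicle, as the libraries rich in Ttr fall. Without those 8 libraries, 0 of 30 genes were called in any comparison.

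Other genes of the pathway, from lists drawn up alongside, were measured in the same fit. Of 14 measured sterol synthesis genes outside the 30, 16 genes of SREBP processing and sterol sensing, 16 of sterol uptake and transport and 28 of the fatty acid pathway, 0 were called on any day against vehicle. Acly, which supplies acetyl-CoA for both routes, differed from vehicle by 0.06 ± 0.04 (SE; edgeR, adjusted p = 0.980) at day 2.

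Among 15 sterol efflux and oxysterol genes, 1 rose. Ch25h, the hydroxylase that makes an oxysterol from cholesterol and is known for induction in immune and glial cells, ranged over 0 to 0.337 CPM (median 0.103) in vehicle, 0.220 to 0.541 (median 0.434) at day 1, 0.220 to 0.533 (median 0.390) at day 2 and 0.691 to 1.81 (median 1.57) at day 3. Every day 3 value lay above every vehicle value, and it rose on the log2 scale at day 3 by 3.26 ± 0.38 (SE; edgeR, adjusted p = 4.23e-06) against vehicle and by 1.89 ± 0.32 (SE; edgeR, adjusted p = 0.00529) against day 2. The level is low, 14 to 37 reads per library at day 3 and 0 to 6 in vehicle.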

How the data were processed

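Bulk RNA-seq counts of entorhinal cortex were analysed for 24 libraries, 6 per group. The table the authors deposited holds raw counts as whole numbers, 1 row per gene, and all 24 columns were used. Software listed per the submitters' processing notes was DESeq2 1.32.0, STAR 2.7.9a and fastp 0.23.1, and the build mm39. What each did, the counter, the annotation and any use of strand were not given in the sources used here, so reads of overlapping, antisense or near-identical genes cannot be told apart. Symbols were matched to Ensembl identifiers for 52084 of 55417 rows.

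The deposited counts were tested with edgeR 4.0.16 in R 4.3.3 (two-sided quasi-likelihood test, TMM factors, filterByExpr with a minimum count of 10 and a minimum total of 15). Group and sex were the terms of the model, fitted to the 24 libraries together, and p-values were adjusted by Benjamini-Hochberg over all genes tested. The biological coefficient of variation was 8.51%. Errors marked SE are those of this fit, with n = 6 per group. CPM are reads scaled to the total of the library, without TMM. Among 60 pairs of libraries of 1 group, chi-square over genes was 3.94 to 13.8 times its degrees of freedom, more than counting noise gives. Correlations used log2 CPM (prior count 2) with 100000 permutations of residuals, without allowance for the terms fitted beforehand. The code was tested on simulated counts. DESeq2 1.42.0, limma 3.58.1 (voom), other factors, filters and models, and fits without single libraries were the alternatives. Promoter windows are RefSeq's on GRCm38.p6, and exon lengths and shared 100-base windows GENCODE M21's. Protein sequences were not analysed here.

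The 30 genes and the other lists were chosen with earlier results of these data known. Group levels are given in full for 7 genes in any case (Hmgcs1, Sqle, Insig1, Srebf1, Srebf2, Fasn and Scd2) and for the 4 of lowest p in each comparison with vehicle, and Fdps was added after its values were seen. Outside the 30, Acly was named in any case, with list genes called against vehicle, and some further list genes are not reported here. Depth was 16.6 to 23.7 M reads per library.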

Additional observations from a re-analysis of the deposited data

Results flagged for a closer look

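In 4 of 120 checks of 30 genes in 4 groups of 6 libraries, 1 library stood apart from the other 5 by a gap that exceeded Dixon's critical value. Chance alone flags about 1 in 20 groups. Mvd was at 22.1 CPM in replicate 4 of day 3, against 15.9 to 18.03 CPM in the other 5 libraries of that day. Ebp was at 10.8 CPM in replicate 1 of day 1, against 14.03 to 15.7 CPM. Srebf1 was at 70.9 CPM in replicate 4 of day 2, against 57.7 to 61.3 CPM, and that library is rich in Ttr. Srebf2 was at 296 CPM in replicate 5 of day 2, against 314 to 323 CPM. Leaving out any of these libraries called 0 of 30 genes in every comparison.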

How the results depend on the processing

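The count of 0 of 30 called genes held in all 9 comparisons and under every alternative run, 315 counts in all: DESeq2, limma voom, RLE and upper-quartile factors, no filter or a filter of 1 CPM in 6 libraries, models without sex or with animal number, the compared groups alone, the libraries low in Ttr, females or males alone, and leaving out each library in turn (lowest and highest count 0). The joint test with only the compared groups is the same fit. No paired analysis was possible because the labels give no replicate numbers shared between groups, and the leading digits of the animal number, which recur across groups, were fitted as a factor instead. For the 14 genes named by rule, leaving out 1 library turned the sign of 9 of 42 differences from vehicle, none of them called (Sqle, Srebf1 and Fasn at day 1, Srebf2, Scap and Msmo1 at day 2, and Srebf2, Fasn and Hsd17b7 at day 3), with log2 values between -0.07 and 0.08. Under the other alternatives, 474 differences of these genes kept their sign. The other 30 all belonged to differences that were not called, most near 0, and the cause of each turn was not tested. In females alone, the log2 differences at day 1 were 0.0115 for Scd2 and -0.0289 for Scap, at day 2 -0.00701 for Hmgcs1 and -0.00451 for Scap, and at day 3 -0.0229 for Sqle, 0.0568 for Srebf2 and 0.0205 for Hsd17b7. In males alone, they were 0.0414 for Sqle, -0.0999 for Srebf1 and -0.0736 for Fasn at day 1, -0.0689 for Srebf1, -0.0365 for Srebf2 and 0.00193 for Msmo1 at day 2, and -0.0127 for Insig1 and -0.0131 for Fasn at day 3. Without the libraries rich in Ttr, they were 0.0318 for Sqle, -0.0757 for Srebf1, -0.0354 for Fasn and 0.0337 for Msmo1 at day 1, -0.0488 for Srebf1, -0.00290 for Srebf2 and 0.0357 for Msmo1 at day 2, and -0.00625 for Insig1 and 0.0433 for Hsd17b7 at day 3. With animal number in the model, they were -0.0102 for Srebf1 and -0.0240 for Fasn at day 1 and -0.0374 for Srebf2 at day 2. With only the compared groups, Srebf2 was at -0.000648 at day 2. With upper-quartile factors, Srebf2 was at 0.00605 and Hsd17b7 at 0.00132 at day 3. The direction of each difference that turned is not settled by these data. Low read numbers limit Fdps, at 8 to 22 reads per library, and hardly the other genes, and why Fdps had so few was not tested. Tissue make-up, the unstated counting method and the unstated time of the vehicle tissue limit all 30 genes.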

Other observations

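Lists beside the pathway were also compared with vehicle in the same fit. Of 19 measured glycerolipid genes, 0 were called against vehicle on any day, with median differences of -0.0023, -0.01 and -0.02 on the log2 scale at days 1, 2 and 3. All 12 oligodendrocyte markers were below 0 at day 2 (median -0.13), with 0 called and 2 of 12 at an unadjusted p under 0.05. Of all genes, 50.3% were above 0 at day 2 and 5.2% had an unadjusted p under 0.05 in either direction. All 5 blood markers were above 0 at day 2 (median 0.71), with 0 called by edgeR and 4 of 5 higher at an unadjusted p under 0.05, against 2.74% of all genes. They summed to 68.4 to 309 CPM at day 2, against 65.4 to 157 CPM in vehicle. Markers of the same cell type may vary together, so these counts are a description.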
